A study of Mus musculus with 6 samples.

Results

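The genes described here encode the classical complement components and their inhibitor: C1qa, C1qb, C1qc, C1ra, C2, C3, C4b and Serping1. They were taken by gene symbol from a count table of mouse mammary gland macrophages, in which all 8 had a row among 24061 symbols and all 8 were among the 13348 genes with enough counts to test. The study sorted F4/80+ macrophages by surface Lyve-1, a hyaluronan receptor, and sequenced the RNA of the Lyve-1+ and the Lyve-1- subset in bulk. There were 6 libraries, 3 of each subset, all from FVB/N mice and all gated as CD45+CD11b+F4/80+. Each library held the pooled number 4 glands of 4 mice, cleared of the inguinal lymph nodes before digestion. Replicate 1 of each subset came from mice 6 weeks of age, and replicates 2 and 3 came from mice 10 weeks of age. Nothing in the labels says whether the 2 subsets of a replicate came from the same pool, so the p-values below measure the spread between these pools.

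The classical pathway starts when C1q binds immune complexes, dying cells or other surfaces. C1q is assembled from 3 kinds of chain, encoded by C1qa, C1qb and C1qc, and carries the proteases C1r and C1s, which cut C4 and C2 to form the enzyme that cleaves C3. Macrophages are a main source of C1q in most tissues, whereas much of the C2, C3 and C4 of the blood is made by hepatocytes, and stromal cells also make C1r, C1s, C3 and the C1 inhibitor.

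The Lyve-1+ libraries held more RNA of C4b and of the C1q genes than the Lyve-1- libraries. C4b was 9.02-fold higher and C1qa 3.16-fold higher, and both passed the test (edgeR quasi-likelihood test, adjusted p = 0.0199 and 0.0376). C1qb and C1qc were 2.47-fold and 3.15-fold higher but missed the threshold of 0.05 (adjusted p = 0.0689 and 0.0697). C1ra and C2 had folds of the same size with wide errors, and C3 and Serping1 had intervals that included no difference. Thus 2 of the 8 genes were called higher in Lyve-1+ macrophages and 0 lower, where 0.45% of all genes tested were called higher and 0.18% lower. In 6 of the 8, all but C3 and Serping1, the 3 Lyve-1+ values were all higher than the 3 Lyve-1- values, which held for 7.82% of all genes tested. The reverse held for 0 of the 8 and for 6.5% of all genes. The same 6 genes had an unadjusted edgeR p under 0.05, as did 7.69% of all genes. The median log2 fold change of the 8 genes was 1.66, against -0.011 over all genes tested.

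**Figure D1:**
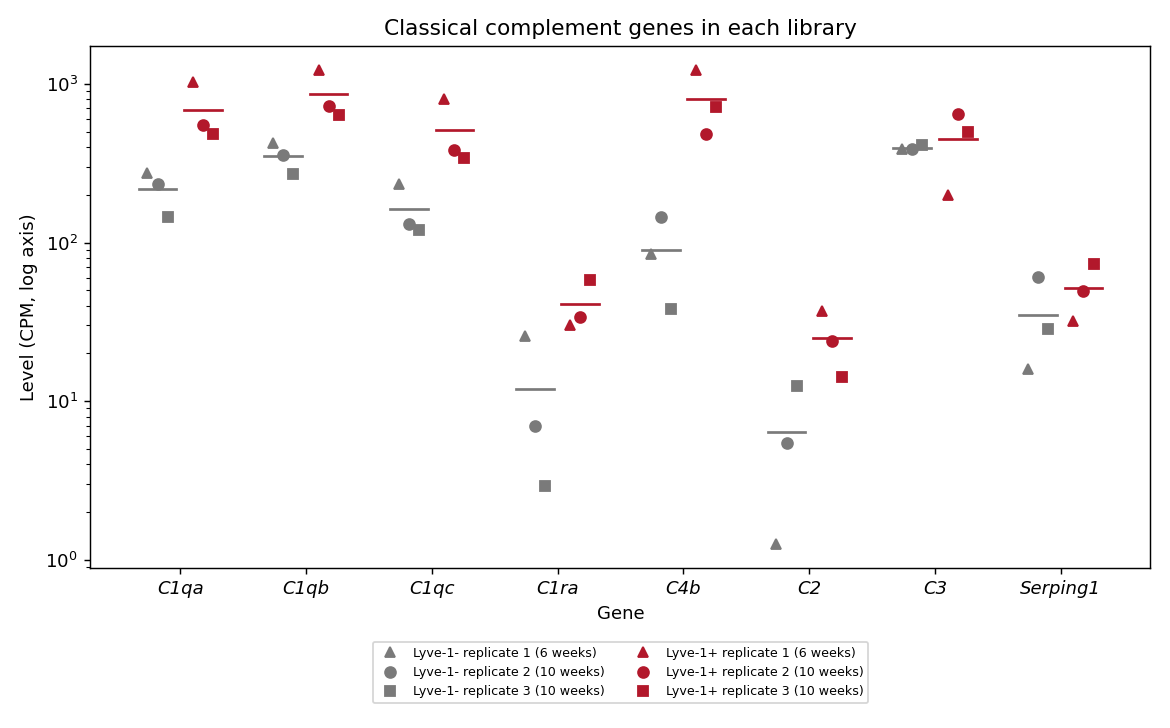
Level of each classical complement gene in CPM (library-size-scaled counts, log axis) in each of the 6 libraries. Each point is 1 library, grey for Lyve-1- and red for Lyve-1+, triangles for 6 weeks of age and circles and squares for 10 weeks, and each bar is the subset mean. The red points lie above all grey points for C1qa, C1qb, C1qc, C1ra, C4b and C2, and the colours overlap for C3 and Serping1.

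Lyve1 itself separated the sorted subsets, at 1.43 to 7.43 CPM (counts relative to library size, normalized by TMM) in the Lyve-1- libraries and at 597 to 2352 CPM in the Lyve-1+ libraries. All 8 macrophage markers examined were present in every library, with a summed level of 3966 to 5299 CPM in Lyve-1- and 4950 to 5951 CPM in Lyve-1+ libraries. Library totals ran from 6478007 to 21406839 counts, and a count of 0 allows up to 3 counts, or 0.144 to 0.437 CPM. Of the 72 genes tested in 12 marker lists of macrophages and other cell types, 0 were called by edgeR, against 0.629% of all genes tested. An unadjusted edgeR p under 0.05 was found for 17 of the 72, and for 7.69% of all genes tested. DESeq2 called 7 of the 72, and 2.16% of the 15866 genes it gave an adjusted p. Some libraries stood apart in other RNA. Olfactory receptor genes, which macrophages should lack, held 2.64 counts per kilobase of exon in Lyve-1- replicate 3 but 0.0343 in Lyve-1- replicate 1. At that rate 7.87 of the 20 C1ra counts and 10.2 of the 86 C2 counts of Lyve-1- replicate 3 would be background, whereas for C1qa it would be 2.75 of 986 counts. In a bulk library, fewer cells of a type and less RNA per cell cannot be told apart.

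The C1q genes lie side by side on the minus strand of chromosome 4 (mm10, GENCODE M21), with C1qb at chr4:136880129-136886187, C1qc at chr4:136889804-136893065 and C1qa at chr4:136895917-136898803. Only 3616 bases separate C1qb from C1qc and 2851 bases separate C1qc from C1qa. The bases before the RefSeq starts of C1qb and C1qc are shown because these neighbours had similar values from library to library. They were searched on both strands for GAGGAA, a purine-rich core of the kind bound by the macrophage factor PU.1, and for TGCTGA, the core of the element bound by Maf factors. Capitals mark the matches, and both stretches read 5′ to 3′ on the strand of the gene (GRCm38.p6).
C1qb, chr4:136886201-136886450, bases 250 to 1 before the start: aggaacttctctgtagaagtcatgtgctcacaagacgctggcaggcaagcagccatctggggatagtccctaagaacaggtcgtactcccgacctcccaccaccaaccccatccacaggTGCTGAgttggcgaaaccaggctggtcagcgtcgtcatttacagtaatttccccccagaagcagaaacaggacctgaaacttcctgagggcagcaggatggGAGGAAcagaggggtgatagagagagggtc
C1qc, chr4:136893066-136893164, bases 250 to 152 before the start: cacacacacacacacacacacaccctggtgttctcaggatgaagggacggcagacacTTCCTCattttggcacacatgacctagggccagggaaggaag
C1qb held GAGGAA at 30 to 25 bases before its start and TGCTGA at 131 to 126 bases before it. C1qc held GAGGAA on the opposite strand, read here as TTCCTC, and no TGCTGA in its whole window, of which the printed stretch is the part outside annotated exons. The windows searched ran from 250 bases before to 50 bases after a start, and of all 32851 such windows 28.3% held GAGGAA and 19.5% held TGCTGA, so neither match is rare.

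C1qa, the gene of the A chain, was at 274, 234 and 144 CPM in replicates 1, 2 and 3 of the Lyve-1- subset. It was at 1027, 548 and 486 CPM in replicates 1, 2 and 3 of the Lyve-1+ subset. The lowest Lyve-1+ library was thus well above the highest Lyve-1- library. This gave a log2 fold change of 1.66 (SE 0.33, 95% confidence interval 0.95 to 2.37). The call rested on 6 libraries, as it was lost without Lyve-1+ replicate 1 (log2 fold change 1.27, edgeR adjusted p = 0.102), with Lyve-1- replicate 3 left out (1.43, adjusted p = 0.185) and within the 10-week libraries alone (1.44, adjusted p = 0.187).

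C1qb, the gene of the B chain, was at 424, 355 and 272 CPM in the Lyve-1- replicates and at 1230, 724 and 638 CPM in the Lyve-1+ replicates. C1qc, the gene of the C chain, was at 234, 131 and 120 CPM and at 806, 384 and 340 CPM in the same order. Within both subsets all 3 chains were highest in replicate 1, the 6-week library, and lowest in replicate 3. The log2 fold change of C1qb was 1.30 (SE 0.29, 95% confidence interval 0.67 to 1.93) and that of C1qc was 1.66 (SE 0.37, 0.86 to 2.45). Both passed the threshold with DESeq2 in place of edgeR (adjusted p = 0.00375 and 0.00339). DESeq2 called 2.16% of the genes it gave an adjusted p. Both chains missed the threshold within the 10-week libraries alone (edgeR adjusted p = 0.358 and 0.121). Leaving out Lyve-1- replicate 1, Lyve-1+ replicate 2 or Lyve-1+ replicate 3 brought the edgeR adjusted p to between 0.0206 and 0.0298 for C1qb and between 0.00471 and 0.0175 for C1qc. Leaving out any of the other libraries kept it between 0.0652 and 0.300 for C1qb and between 0.147 and 0.296 for C1qc.

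Summed over the chains, C1q took 0.0918%, 0.0721% and 0.0567% of all counts in the Lyve-1- replicates. It took 0.295%, 0.161% and 0.144% in the Lyve-1+ replicates. The 95% Clopper-Pearson intervals, which cover counting error only, were at most as wide as 0.292% to 0.298%, far narrower than the spread between libraries. The means were 0.0735% ± 0.0176 and 0.200% ± 0.0825 (SD, n = 3 each), and the ranges of the subsets did not overlap. An exact two-sided permutation test over libraries gave p = 0.1, the smallest that 3 against 3 allows (adjusted p = 0.15 over the 6 ratios and shares compared).

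Over all 6 libraries, the split of C1q counts among the chains varied less than their sum. Within the Lyve-1- libraries alone, the log2 ratio of C1qc to C1qa still ran from -0.836 to -0.227. C1qb took the largest part in every library, 45.5%, 49.3% and 50.7% in the Lyve-1- replicates and 40.2%, 43.7% and 43.6% in the Lyve-1+ replicates. C1qc took 25.1%, 18.2% and 22.4% in the Lyve-1- replicates and 26.3%, 23.2% and 23.2% in the Lyve-1+ replicates. C1qa took 29.4%, 32.5% and 26.9% in the Lyve-1- replicates and 33.5%, 33.1% and 33.2% in the Lyve-1+ replicates. The log2 ratio of C1qb to C1qa was accordingly lower in every Lyve-1+ library (0.26 to 0.40) than in every Lyve-1- library (0.60 to 0.92), a difference of means of -0.365 (exact permutation test, p = 0.1, the smallest possible). The log2 ratio of C1qc to C1qa overlapped between the subsets, with a difference of -0.0194 (exact permutation test, p = 1.0).

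**Figure D2:**
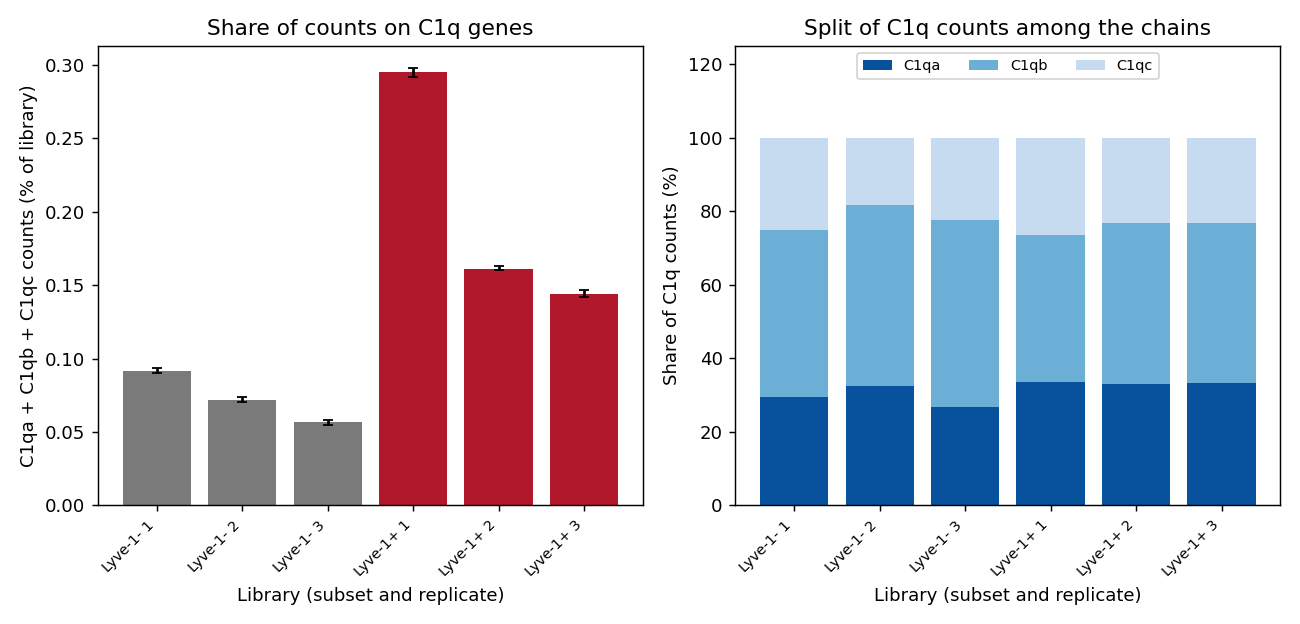
Left, the share of each library's counts on C1qa, C1qb and C1qc together (%, bars start at 0; error bars, 95% Clopper-Pearson interval), grey for Lyve-1- and red for Lyve-1+. Right, the split of those counts among the 3 chains (%). The shares of the red libraries, 0.144% to 0.295%, lie above all grey libraries, and C1qb holds the largest part in all 6.

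C1ra, the gene of the protease C1r that C1q carries (chr6:124512405-124523443, plus strand), was at 25.7, 6.93 and 2.92 CPM in the Lyve-1- replicates. It was at 30.0, 34.1 and 58.0 CPM in the Lyve-1+ replicates. The 6-week libraries nearly met, and both 10-week Lyve-1+ libraries were well above both 10-week Lyve-1- libraries. The test gave a log2 fold change of 1.77 (SE 0.72, 95% confidence interval 0.22 to 3.32, edgeR adjusted p = 0.528). Leaving out Lyve-1- replicate 1 gave 3.02 (edgeR adjusted p = 0.0431). The Lyve-1+ library with the most C1ra, replicate 3, also had the highest sum of 12 fibroblast markers, 1801 CPM against 796 and 713 CPM in the other Lyve-1+ libraries and 419 to 599 CPM in the Lyve-1- libraries. Of those markers 10 had a log2 fold change above 0 and 0 were called by edgeR. The unadjusted p was under 0.05 for 4 of them, Col6a1, Col6a2, Lum and Pdgfra, which DESeq2 called. Over all genes tested, edgeR called 0.629% and 7.69% had such an unadjusted p. DESeq2 called 2.16% of the genes it gave an adjusted p. Lyve-1+ replicate 3 also had the highest sums of hepatocyte, neutrophil and B cell markers, at 1327, 484 and 84.2 CPM. The part of any of these markers' cells in the C1ra values was not tested.

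C1ra shares much sequence with C1rb, its neighbouring copy, so the division of reads between them is uncertain. Their coding sequences were 98.0% identical, and 50.8% of the 50-base windows of C1ra occurred in another gene. C1rb was at 12.8, 0 and 4.66 CPM in the Lyve-1- replicates and 9.22, 7.38 and 5.80 CPM in the Lyve-1+ replicates. C1s1, the gene of the partner protease C1s, was at 49.7, 10.7 and 17.1 CPM and at 18.3, 39.1 and 26.8 CPM (log2 fold change 0.12, SE 0.63, edgeR adjusted p = 1.0). C1s2, a copy of C1s1, was at or below 10.6 CPM everywhere, and C1rl, a C1r-like gene, was at 0 to 1.34 CPM in Lyve-1- and 3.93 to 12.1 CPM in Lyve-1+ libraries (log2 fold change 3.92, adjusted p = 0.793). Of the 5 other classical pathway genes, edgeR called 0, against 0.629% of all genes tested. DESeq2 also called 0, against 2.16% of the genes it gave an adjusted p. Unadjusted, 0 of the 5 had an edgeR p under 0.05, where 7.69% of all genes tested did.

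C4b, which encodes the C4 that C1s cleaves (chr17:34728380-34743882, minus strand), gave the largest difference among the 8 genes. It was at 84.9, 144 and 38.0 CPM in the Lyve-1- replicates and at 1217, 485 and 712 CPM in the Lyve-1+ replicates. The lowest Lyve-1+ library was 3.36-fold above the highest Lyve-1- library, and the 6-week libraries of the subsets stood 14.3-fold apart. The difference was 3.17 on the log2 scale (SE 0.49, 95% confidence interval 2.10 to 4.25, edgeR adjusted p = 0.0199). It stayed between 2.75 and 3.71 with each library left out, but the call was lost without Lyve-1- replicate 1 (adjusted p = 0.279), without Lyve-1+ replicate 3 (0.0773) and within the 10-week libraries alone (log2 fold change 2.68, adjusted p = 0.335). The fibroblast sum was also higher in all 3 Lyve-1+ libraries (713 to 1801 CPM) than in the Lyve-1- libraries (419 to 599 CPM), and its part in the C4b values was not tested.

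C4b has a near copy, C4a, and reads from stretches they share could be counted for either gene or dropped. The coding sequence of C4b was 96.1% identical to the longest C4a transcript, with 201 mismatches over 5207 aligned bases, and 34.6% of the 50-base windows of C4b occurred in C4a. The most divergent 60-base stretch of the alignment is shown as an example of the many places where a read can tell the genes apart. Capitals mark the 13 bases that differ (GENCODE M21, 5′ to 3′ on the coding strand, coding bases 2705 to 2764 of C4b and transcript bases 2755 to 2814 of C4a).
C4b: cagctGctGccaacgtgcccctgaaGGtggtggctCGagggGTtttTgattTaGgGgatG
C4a: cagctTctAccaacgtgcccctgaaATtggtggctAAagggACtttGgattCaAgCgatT
C4a was at 5.71, 5.86 and 7.87 CPM in the Lyve-1- replicates and 29.0, 4.31 and 20.5 CPM in the Lyve-1+ replicates (log2 fold change 1.47, edgeR adjusted p = 0.915). C4b therefore took 82.9% to 96.1% of the C4 counts in Lyve-1- and 97.2% to 99.1% in Lyve-1+ libraries.

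C2, the other substrate of C1s (chr17:34862604-34898265, minus strand), was the lowest of the 8 genes per length. It was at 1.26, 5.42 and 12.5 CPM in the Lyve-1- replicates and at 37.1, 23.8 and 14.1 CPM in the Lyve-1+ replicates. The 6-week libraries stood 29.4-fold apart. The lowest Lyve-1+ library was only 1.13-fold above the highest Lyve-1- library, so the subsets nearly met. Its log2 fold change was 1.97 (SE 0.88, 95% confidence interval 0.09 to 3.85, edgeR adjusted p = 0.602), and it was called under none of the 16 alternatives run. C2 shares 1656 exonic bases with Gm20547, an overlapping gene model on its own strand that has no row in the count table, and 41.5% of the 50-base windows of C2 occurred in another gene. It also overlaps 161 exonic bases of Zbtb12 on the opposite strand, and whether the counting used strand is not given in the sources used here.

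C3, the protein on which the pathways meet (chr17:57203970-57228136, minus strand), was at 391, 388 and 413 CPM in the Lyve-1- replicates, the tightest group of any of these genes. It was at 200, 648 and 494 CPM in the Lyve-1+ replicates. The Lyve-1+ libraries thus lay on both sides of the Lyve-1- libraries, below them at 6 weeks and above them at 10 weeks. Over all libraries the log2 fold change was 0.17 (SE 0.35, 95% confidence interval -0.57 to 0.91, edgeR adjusted p = 1.0). It was -0.21 with Lyve-1+ replicate 2 left out. The term for a different subset effect at the 2 ages was 1.48 on the log2 scale (SE 0.54, edgeR adjusted p = 0.948). C3 and C1ra had an unadjusted p under 0.05 for that term, as did 4.59% of all genes. No gene of the 8 passed that interaction test, for which 0.00749% of all genes were called, namely Lyve1 alone.

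The bases before C3 are shown because C3 had a CPM like those of the C1q genes without their difference. They were searched on both strands for TTNNGNAA, letters of the kind bound by C/EBP factors, and for the motifs searched before C1q. Capitals mark the matches, in the order TGCTGA on the opposite strand, read as TCAGCA, and then 3 matches to TTNNGNAA.
C3, chr17:57228137-57228386, minus strand, GRCm38.p6, bases 250 to 1 before the RefSeq start: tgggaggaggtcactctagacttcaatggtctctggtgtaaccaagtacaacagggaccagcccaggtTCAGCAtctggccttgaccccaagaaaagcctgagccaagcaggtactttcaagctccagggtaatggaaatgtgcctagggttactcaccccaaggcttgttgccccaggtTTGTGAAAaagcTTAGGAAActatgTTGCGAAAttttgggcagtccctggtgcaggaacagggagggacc
The matches to TTNNGNAA began 70, 58 and 45 bases before the start. C1qc held this motif beginning 81 bases before its start and C1qb did not hold it, and 40.7% of all promoter windows did. C1ra also held it, with matches at 72 and 29 bases before its start and 16 bases after it. C3 held no GAGGAA. The promoter table matched 4 of the 8 genes, C1qb, C1qc, C1ra and C3.

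Serping1, which encodes the C1 inhibitor that removes C1r and C1s from the complex (chr2:84765387-84775444, minus strand), was at 16.0, 60.5 and 28.7 CPM in the Lyve-1- replicates. It was at 32.0, 49.5 and 73.3 CPM in the Lyve-1+ replicates. The subsets overlapped, as Lyve-1+ replicates 1 and 2 were below the highest Lyve-1- library. Its log2 fold change was 0.55 (SE 0.53, 95% confidence interval -0.57 to 1.68, edgeR adjusted p = 1.0), an interval that reaches the size of the C1q differences. With each library left out it ran from 0.19 to 1.21. As with C1ra, the Lyve-1+ library with the highest fibroblast, hepatocyte, neutrophil and B cell sums had the most Serping1. The part of other cells in the Serping1 values was not tested.

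**Figure D3:**
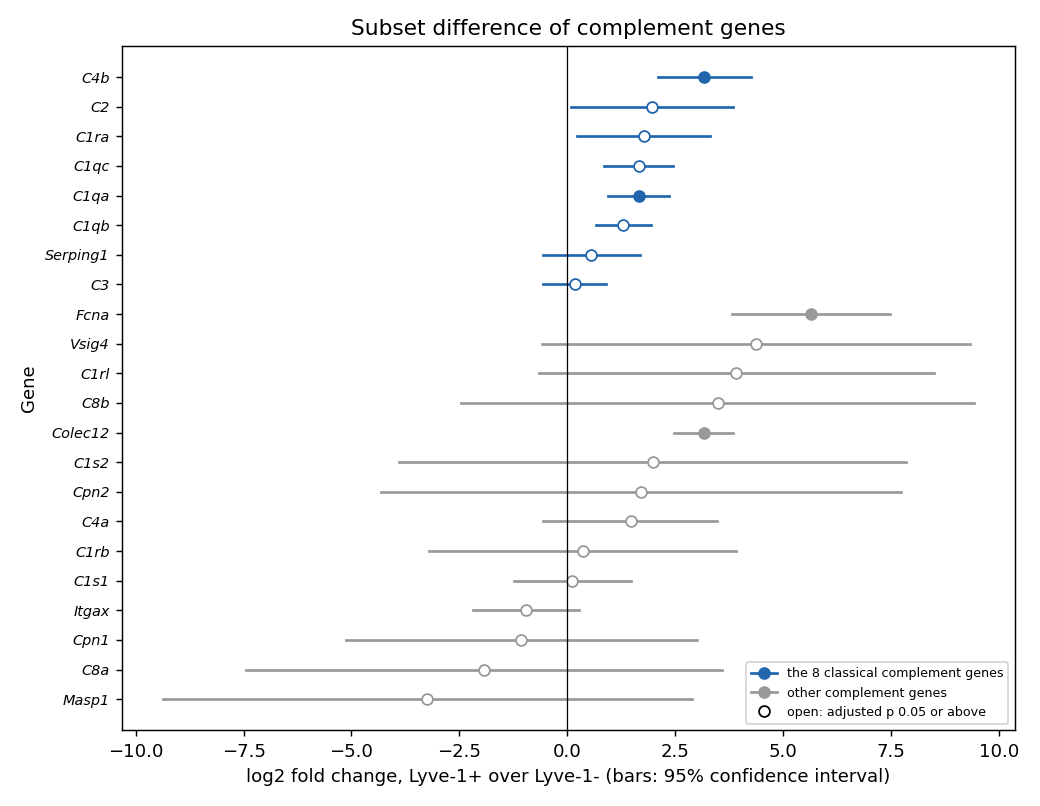
Log2 fold change of Lyve-1+ over Lyve-1- (points) with 95% confidence intervals (lines) from edgeR. Blue marks the 8 classical complement genes and grey marks 14 other complement genes. The grey genes are C4a, C1rb, C1s1, C1s2 and, in each other complement list, the highest, the lowest and every called gene. C6, Cr1l and Cr2, also named in the text, are not plotted. Filled points passed the threshold of 0.05. C4b at 3.17 and C1qa at 1.66 are filled among the blue points, and the intervals of C3 and Serping1 cross 0.

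Per kilobase of exon, the C1q chains had the highest mean levels of the 8 genes in both subsets, although C1qc was above C3 in only 1 of the 3 Lyve-1- libraries. In Lyve-1- libraries the order of the mean levels was C1qb (322 ± 70.2 CPM per kilobase), C1qa (209 ± 64.3), C1qc (83.8 ± 32.7), C3 (77.2 ± 2.69), C4b (15.6 ± 9.36), Serping1 (15.1 ± 9.85), C1ra (3.98 ± 4.08) and C2 (1.65 ± 1.47; SD, n = 3). Of these neighbours, C1qa with C1qc and C3 with C4b did not overlap in range, and the rest overlapped. In Lyve-1+ libraries the order was C1qb (794 ± 294), C1qa (661 ± 284), C1qc (264 ± 133), C4b (141 ± 65.8), C3 (87.0 ± 44.2), Serping1 (22.2 ± 8.92), C1ra (13.6 ± 5.07) and C2 (6.46 ± 2.98). There the ranges of C1qa and C1qc, of C3 and Serping1 and of C1ra and C2 did not overlap, and those of the other neighbours did. C4b thus stood above C3 by mean in Lyve-1+ and below it in Lyve-1- libraries, although its range overlapped that of C3 in Lyve-1+ libraries. Among all genes with a known length, C1qb ranked between 16 and 30 in the Lyve-1+ libraries and between 77 and 110 in the Lyve-1- libraries. C4b ranked between 163 and 413 in Lyve-1+ and between 1716 and 5179 in Lyve-1- libraries.

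The C1q chains were more like each other across the libraries than like any other gene of the 8. After each gene was centred on its mean log2 CPM, C1qa and C1qc differed by 0.172 per library on average, C1qa and C1qb by 0.182 and C1qb and C1qc by 0.215, over 6 libraries. C1qa differed from the genes outside C1q by 0.820 (C4b) to 0.925 (Serping1). Over all genes tested, the nearest patterns to the mean of the C1q chains were those of Snx2 (0.0939), Kifc3 (0.112), Trpv4 (0.152), Mrc1 (0.156) and Tuba1b (0.156), where the median gene was at 1.06. Mrc1 encodes the mannose receptor of macrophages. The nearest to C4b were Rcn3 (0.261), Pdgfc (0.303) and Folr2 (0.345), a folate receptor of tissue macrophages, and the nearest to C3 were Prkch (0.0817), Cep83 (0.105) and Gk5 (0.141).

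The other complement genes were examined as 5 lists with 48 genes reported here, of which 37 could be tested, 2 were called higher in Lyve-1+ libraries by edgeR and 0 lower, where 0.45% and 0.18% of all genes tested were. Their median log2 fold change was 0.64, with 28 of the 37 above 0, where 49.4% of all genes tested were. The called genes were Fcna and Colec12. In both the ranges of the subsets did not overlap, as in 6 of the 37 genes and in 7.82% of all genes tested with the Lyve-1+ values higher.

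Fcna encodes ficolin A, a soluble recognition protein of the lectin pathway, which joins the classical pathway at C4. It was at 16.1, 2.67 and 7.43 CPM in the Lyve-1- replicates and at 781, 233 and 306 CPM in the Lyve-1+ replicates (log2 fold change 5.64, SE 0.80, edgeR adjusted p = 0.0310). Colec12, a membrane collectin that also acts as a scavenger receptor, was at 57.6, 41.8 and 42.3 CPM and at 586, 358 and 323 CPM (log2 fold change 3.16, SE 0.32, adjusted p = 0.000523). The proteases that act after ficolins were scarce, with Masp1 at 0 to 7.14 CPM (log2 fold change -3.24, adjusted p = 1.0) and Masp2 too low to test. Fcna lost its call without Lyve-1- replicate 3 (edgeR adjusted p = 0.151), Lyve-1+ replicate 3 (0.141) or Lyve-1+ replicate 2 (0.052), and Colec12 kept it with each library left out.

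Of the 6 regulators tested and reported here, edgeR called 0, against 0.629% of all genes tested. DESeq2 also called 0, against 2.16% of the genes it gave an adjusted p. Unadjusted, 0 of the 6 regulators had an edgeR p under 0.05, where 7.69% of all genes tested did. The log2 fold changes ran from -1.06 for Cpn1 (edgeR adjusted p = 1.0) to 1.71 for Cpn2 (adjusted p = 1.0), which encode the catalytic and the regulatory subunit of the carboxypeptidase that inactivates C3a and C5a. Cpn2 was at or below 2.44 CPM in every library and Cpn1 at or below 16.4 CPM.

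Of the 13 receptor genes, edgeR called 0, against 0.629% of all genes tested. DESeq2 also called 0, against 2.16% of the genes it gave an adjusted p. An unadjusted edgeR p under 0.05 was found for 2, Cr1l and Cr2, and for 7.69% of all genes tested. The largest log2 fold change was that of Vsig4, a macrophage receptor for C3 fragments, at 0, 0.355 and 0.875 CPM in the Lyve-1- replicates and 19.6, 5.80 and 0.252 CPM in the Lyve-1+ replicates (4.38, edgeR adjusted p = 0.752). The lowest was that of Itgax, a subunit of complement receptor 4 that also marks dendritic cells, at 68.1, 152 and 131 CPM and at 15.1, 65.3 and 101 CPM (-0.95, adjusted p = 0.868). The sum of 7 dendritic cell markers was likewise lower in Lyve-1+ libraries, 127 to 419 CPM against 542 to 1591 CPM. Of the 7, 0 were called by edgeR, 2 had an unadjusted p under 0.05 and 2 were called by DESeq2. Over all genes tested, edgeR called 0.629% and 7.69% had such an unadjusted p. DESeq2 called 2.16% of the genes it gave an adjusted p.

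Of the 8 alternative and terminal pathway genes tested, 0 were called by edgeR, against 0.629% of all genes tested. An unadjusted edgeR p under 0.05 was found for 1, C6, and for 7.69% of all genes tested. C6, a component of the membrane attack complex, was at 12.5, 0.888 and 7.43 CPM in the Lyve-1- replicates and at 111, 56.5 and 28.2 CPM in the Lyve-1+ replicates. The subsets did not overlap, with a log2 fold change of 3.23 (SE 0.83, edgeR adjusted p = 0.151). It was called by DESeq2 (adjusted p = 0.00699), and over the alternatives its adjusted p ran from 2.42e-05 with no filter on low counts to 0.437 without Lyve-1+ replicate 1. The 8 genes ran from C8a (log2 fold change -1.93) to C8b (3.49), both terminal components that hepatocytes make and both at or below 11.6 CPM in every library.

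Hepatocyte markers were read in several libraries, which bears on C2, C3 and C4b because hepatocytes also make them. The sum of 6 such markers, Alb among them, was 701, 795 and 62.2 CPM in the Lyve-1- replicates and 88.5, 17.8 and 1327 CPM in the Lyve-1+ replicates. C2 and C4b were highest in Lyve-1+ replicate 1 and C3 in Lyve-1+ replicate 2. C1ra (58.0 CPM) and Serping1 (73.3 CPM) were highest in Lyve-1+ replicate 3, the library with the highest hepatocyte sum. Of the 6 markers, edgeR called 0, against 0.629% of all genes tested. DESeq2 also called 0, against 2.16% of the genes it gave an adjusted p. Unadjusted, 0 of the 6 had an edgeR p under 0.05, where 7.69% of all genes tested did. The part of these markers' cells in the C1ra, C2, C3, C4b and Serping1 values was not tested.

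Left out 1 at a time, the libraries moved the C1q genes and C4b in size but not in direction. Log2 fold changes ran from 1.27 to 1.84 for C1qa, 0.98 to 1.45 for C1qb and 1.18 to 2.01 for C1qc, with the lowest value of each without Lyve-1+ replicate 1. Between 1 and 4 of the 8 genes were called with a library left out, where 19 to 153 of all genes tested were. Without Lyve-1+ replicate 3, the library with the highest fibroblast and hepatocyte sums, the called genes were C1qa, C1qb and C1qc. That fit called 133 of 15523 genes. Without Lyve-1- replicate 3, the library with the most olfactory receptor counts, C4b alone of the 8 was called, among 19 of 13654 genes. With the olfactory receptor background subtracted, C1qa and C4b were called, among 79 of 12845 genes.

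**Figure D4:**
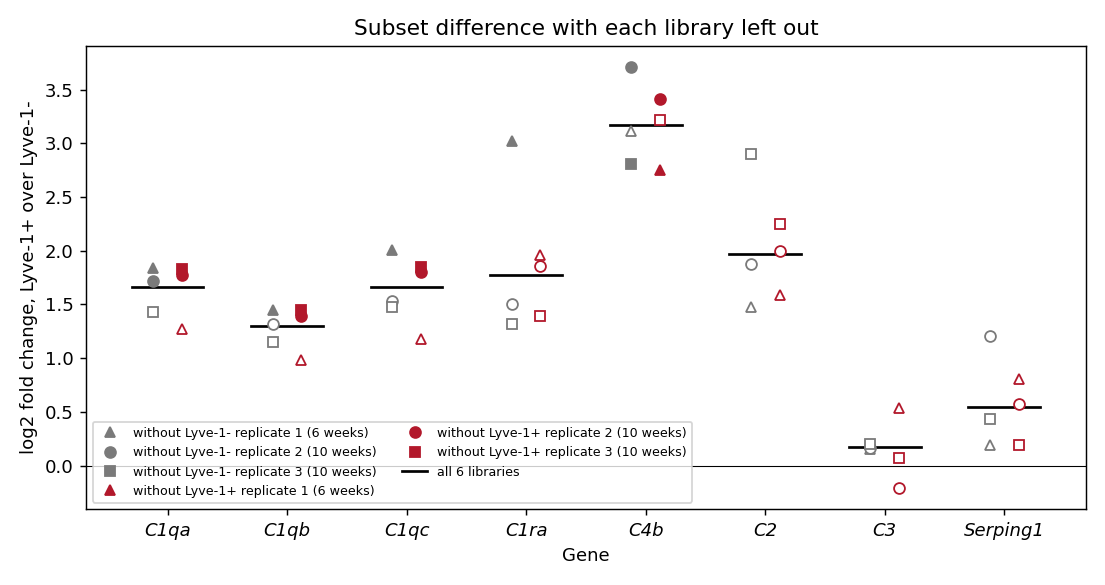
Log2 fold change of Lyve-1+ over Lyve-1- for each classical complement gene with all 6 libraries (black bars) and with each library left out (points, coloured and shaped by the library left out). Filled points have an edgeR adjusted p under 0.05. C4b stays between 2.75 and 3.71 and the C1q chains between 0.98 and 2.01, whereas C3 crosses 0 without Lyve-1+ replicate 2.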

How the data were processed

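The authors mapped paired 50-bp reads to mm10 with HISAT2 2.0.2, counted them per gene with featureCounts (Subread, version 1.5.0 in the submitters' processing notes) and deposited raw counts without normalization. Their methods name a removal of genes under 300 bp and of 1 outlying 6-week library before their own test. RNA was extracted with an RNeasy Mini Kit, and libraries were made with a SMARTer Stranded Pico kit. Totals were 6478007 to 21406839 counts per library, which limits the precision of low genes such as C2.

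All 24061 symbols entered the fit. Genes were kept by filterByExpr, scaled by TMM and tested with edgeR 4.0.16 (R 4.3.3; quasi-likelihood, robust, subset as the only term, all 6 libraries), with Benjamini-Hochberg adjustment over the 13348 genes tested and a threshold of 0.05. DESeq2 1.42.0 was an alternative. The interaction with age was a further fit. CPM used the scaled library sizes, and levels per kilobase used GENCODE M21 exon unions (22749 symbols matched directly, 943 through RefSeq synonyms, 369 not). Ratios and shares were tested by exact two-sided permutation over libraries (scipy 1.17.1). Sequences came from GENCODE M21 and RefSeq promoters. The scripts were tested on simulated data.

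The genes, lists and tests were chosen with earlier results of these data known. Named were the 8 genes, Lyve1, the copies C4a, C1rb, C1s1 and C1s2, in each other complement list the highest, the lowest and every called gene, and the nearest patterns (5 for C1q, 3 for C3 and C4b). A gene of these lists is not reported here. Masp2, Alb, C6, Cr1l, Cr2 and the fibroblast markers were named after their values were seen. The alternatives were other scalings, other filters on low counts, age as a covariate, a replicate block, the 10-week libraries by themselves, RNA and mitochondrial genes removed, each library left out, a stricter threshold and, chosen after seeing the data, subtraction of the olfactory receptor background and the ratios of C1qc to C1qb and of C4b to C3. The replicate numbers were not treated as pairs.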

Additional observations from a re-analysis of the deposited data

Results flagged for a closer look

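In 5 complement genes of the plot of log2 fold changes with confidence intervals, the subset difference had opposite signs at the 2 ages. Here 6 weeks is a single pair of libraries and 10 weeks is the mean of the other libraries. In these 5 genes the 10-week values of the subsets did not overlap. Complement genes outside that plot were not screened in this way, and some of them also had opposite signs at the 2 ages. The log2 ratio of Lyve-1+ to Lyve-1- CPM of C3 was -0.97 at 6 weeks and 0.51 at 10 weeks (interaction in edgeR, adjusted p = 0.948). For C1s1 it was -1.44 and 1.25 (edgeR adjusted p = 0.976), and for C1rb it was -0.47 and, with a library at 0 set to 3 counts, 1.42 (edgeR adjusted p = 1.0). C8a was at 0 to 7.91 CPM and Masp1 at 0 to 7.14 CPM over the libraries. With libraries at 0 set to 3 counts, the ratio was 3.13 at 6 weeks and -3.36 at 10 weeks for C8a, and 2.18 and -4.42 for Masp1 (edgeR interaction, adjusted p = 0.976 for both). None of the 5 passed the test of the difference between the ages.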

How the results depend on the processing

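The direction of C1qa, C1qb, C1qc, C1ra, C2, C4b and Serping1 was the same in all 16 alternatives. C3 reversed without Lyve-1+ replicate 2 (-0.21). All genes called numbered 343 with DESeq2, 289 with no filter on low counts, 270 with the replicate block, 130 with age as a covariate, 39 in the 10-week libraries alone, 15 at the stricter threshold (adjusted p under 0.01, absolute log2 fold change above 1 and below 10) and 19 to 153 with a library left out, against 84. With at least 10 counts in every library, 121 of 8865 genes tested were called. Of the 8 genes, 4 were called with DESeq2, with no filter, with at least 10 counts in every library and with age as a covariate. In the 10-week libraries or at the stricter threshold 0 were, and 1 to 4 were with a library left out. Other complement genes called numbered 4 with no filter, 1 at the stricter threshold and 1 to 4 with a library left out, against 2.

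In the order DESeq2, no filter, at least 10 counts and age as a covariate, the log2 fold change passed the threshold at 1.26, 1.28, 1.29 and 1.26 for C1qb and at 1.61, 1.63, 1.64 and 1.61 for C1qc. In the 10-week libraries alone C1qa (1.44) and C4b (2.68) no longer passed it, and the log2 ratio of C1qc to C1qa changed sign (0.0324, and -0.217 to 0.0878 with a library left out). With each library left out, log2 fold changes ran from 1.27 to 1.84 (C1qa), 0.98 to 1.45 (C1qb), 1.18 to 2.01 (C1qc), 1.32 to 3.02 (C1ra), 1.48 to 2.90 (C2), 0.19 to 1.21 (Serping1), -0.21 to 0.54 (C3) and 2.75 to 3.71 (C4b). The cause of these changes was not tested.

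Same-numbered libraries of the subsets did not deviate together over all genes (r = -0.0462, -0.00183 and -0.147). The labels name no shared pool, although both replicate 1 libraries share an age, so the numbers were not taken as pairs. With the replicate block, C1qb (1.27) and C1qc (1.61) passed the threshold and C4b (3.30, adjusted p = 0.0552) did not. C1ra and C2 had 20 and 15 counts in their lowest libraries.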

Other observations

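Ratios between the genes were added after their values had been seen, so they restate differences given above. The log2 ratio of C4b to C3 counts was -3.44 to -1.43 in the Lyve-1- libraries and -0.416 to 2.61 in the Lyve-1+ libraries (exact two-sided permutation test over libraries, p = 0.1, the smallest that 3 against 3 allows, adjusted p = 0.15). The log2 ratio of C1qc to C1qb was -1.44 to -0.856 and -0.915 to -0.611 (exact permutation test, p = 0.3, adjusted p = 0.36).

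C9, the pore-forming terminal component, had counts in Lyve-1- replicate 3 alone (4.66 CPM), the library with the most olfactory receptor counts. Cfi, the protease that inactivates C3b and C4b, was at or below 3.06 CPM in every library.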
